A study of Mus musculus with 4 samples.

Results

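Expression of 10 genes that set secretory fate in the gut lining was followed across cells of the mouse colon: Notch1, Dll1, Dll4, Hes1, Atoh1, Gfi1, Spdef, Neurog3, Neurod1 and Klf4. They were chosen by symbol as regulators of the secretory lineage and of Notch signalling, and all 10 were found among the 32285 genes counted. Cells came from adult C57/BL6J colon in 2 batches, and each batch mixed 4 conditions marked with hashtag antibodies before a viability sort and 3' droplet sequencing. The conditions were untreated wild type, untreated JUP-KO (lacking plakoglobin, a junction protein encoded by Jup), wild type on dextran sulfate sodium (DSS, a chemical used to provoke colitis), and JUP-KO on DSS. Which cells the knockout covers, the DSS dose and time, the age, and whether the batches are separate mice are not stated in the labels. A p-value here thus measures only how far these samples spread, and that spread may be technical.

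In the crypt, a cell that carries Delta ligands activates Notch receptors on its neighbours, and active Notch turns on Hes1, a repressor of Atoh1. Cells that escape this signal express Atoh1, the master factor of secretory cells, and then follow Gfi1 and Spdef toward goblet cells or Neurog3 and Neurod1 toward hormone-producing enteroendocrine cells. Klf4 is a zinc finger factor of differentiated colon cells, goblet cells among them.

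Hashtags in the files are called Ctrl_WT, TG_WT, Ctrl_DSS and TG_DSS. Read by name, Ctrl_DSS means DSS-treated wild type and TG_WT means the untreated knockout, while by antibody number these 2 change places. Both readings make Ctrl_WT the untreated wild type and TG_DSS the DSS-treated knockout, so groups are given below by tag. Jup itself did not settle the reading: in epithelial-like cells it was 8.78 to 13.8 CPM (defined below) for Ctrl_DSS, 33.9 and 81.6 for TG_DSS, and 65.6 to 107 for Ctrl_WT and TG_WT. The labels do not say which part of Jup is deleted, so 3' reads need not check it. The 2 batches kept 7157 and 6472 cells, with medians of 12301 and 7090.5 UMIs, and 14 barcodes occurred in both. Of 7995 epithelial-like cells most had no tag, and the tagged ones numbered 46 to 392 per tag and batch. Clusters that mixed epithelial and neutrophil markers (786 droplets) were kept apart.

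Levels are CPM (the UMIs of a gene scaled to all UMIs of its class), given as batch 1 and then batch 2. All intervals are at 95%, exact Poisson for levels and Clopper-Pearson for shares, and cover counting error only. Classes were found by clustering without the 10 genes, and their levels are described with no test. Levels are compared between classes for 1 gene, and between genes only to name the most abundant genes of a list.

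The promoters below belong to genes whose levels are set side by side in what follows: Atoh1 and Spdef, which had their highest levels in the same classes, the ligand Dll1, and Neurog3. They are the 250 bases before the first RefSeq start site (GRCm38.p6, 5′ to 3′ on the gene's strand). Capitals mark a match to CAGCTG, an E-box that basic helix-loop-helix factors such as ATOH1 can bind, or to TTCCCA (reverse TGGGAA), a core of RBPJ sites. Atoh1 lies at chr6:64728875-64729124 on the plus strand, Spdef at chr17:27728952-27729201 on the minus strand, Dll1 at chr17:15376933-15377182 on the minus strand and Neurog3 at chr10:62132840-62133089 on the plus strand.
Atoh1: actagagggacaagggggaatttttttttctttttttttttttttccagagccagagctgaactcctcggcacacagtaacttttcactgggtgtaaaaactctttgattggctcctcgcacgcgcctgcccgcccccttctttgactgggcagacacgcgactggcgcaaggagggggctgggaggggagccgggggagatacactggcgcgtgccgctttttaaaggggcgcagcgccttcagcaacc
Spdef: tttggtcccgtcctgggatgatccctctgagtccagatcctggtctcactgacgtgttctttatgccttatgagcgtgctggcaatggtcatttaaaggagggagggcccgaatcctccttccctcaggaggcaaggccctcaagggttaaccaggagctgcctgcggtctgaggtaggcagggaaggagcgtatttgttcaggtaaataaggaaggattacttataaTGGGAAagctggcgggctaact
Dll1: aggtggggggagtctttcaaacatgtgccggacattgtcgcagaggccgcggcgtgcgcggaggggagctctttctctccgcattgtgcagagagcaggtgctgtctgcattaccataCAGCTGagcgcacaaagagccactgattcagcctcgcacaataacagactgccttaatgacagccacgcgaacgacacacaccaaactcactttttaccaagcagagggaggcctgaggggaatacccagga
Neurog3: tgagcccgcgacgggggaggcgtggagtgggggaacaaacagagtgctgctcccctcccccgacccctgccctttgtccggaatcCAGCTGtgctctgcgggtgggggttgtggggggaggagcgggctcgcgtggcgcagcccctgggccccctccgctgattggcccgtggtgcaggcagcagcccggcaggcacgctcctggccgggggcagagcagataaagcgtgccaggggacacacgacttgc

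CAGCTG stood 132 bases before the first start site of Dll1, 165 before Neurog3 and 247 before Klf4, and 13.0% of 32851 windows of this length held it. Dll1 has 2 RefSeq start sites, and the first, used here, lies outside the gene span given below. The window before the second Dll1 start site held no such E-box. TGGGAA stood 22 bases before the start of Spdef, and 21.6% of windows held TTCCCA on either strand. CAGATG (reverse CATCTG, 14.4% of windows) matched in no window of the members. CACNAG (reverse CTNGTG), the N-box bound by Hes factors, matched as CACTAG in Dll4 and as CACAAG in Notch1, and 36.7% of windows held it. The window of Atoh1 held no match. A match describes letters and is not a binding site. Promoter windows were at hand for 9 of the 10 members, Hes1 being the member without. Only those of Atoh1, Spdef, Dll1 and Neurog3 are printed.

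Notch1, the receptor (mm10 chromosome 2, 26457903 to 26516663), was highest in stem-like cells at 30.7 and 29.9 CPM. Cycling-like cells had 17.4 and 16.5, and the unnamed cluster led by Htr4 had 19.5 and 16.5, so these 2 overlapped each other but not the stem-like cells. Goblet-like cells held 1 Notch1 UMI in batch 1 and 0 in batch 2 (0.36 CPM, and a floor of 0.999 CPM for 3 counts), the lowest of the 9 epithelial classes. Outside the epithelium, macrophage-like cells had 29.8 and 41.4 CPM and neutrophil-like cells 31.3 and 34.1, so Notch1 was not restricted to the crypt.

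Dll1 and Dll4, the ligands, had their highest epithelial levels in tuft-like and goblet-like cells. Dll1 (mm10 chromosome 17, 15367354 to 15376872) had 20.9 and 21.2 CPM in tuft-like cells, on 19 and 6 UMIs. With cells of exactly 1 tag the tuft-like mean of the batches was 4.3 instead of 21 CPM, and goblet-like cells then led at 6.76; at a limit of 10% mitochondrial UMIs it was 10 CPM. Deep-crypt goblet-like cells followed at 7.5 and 8.55 CPM and goblet-like cells at 7.2 and 4.66. Colonocyte-like cells, the absorptive cells, had 2.38 and 1.96. Dll4 (mm10 chromosome 2, 119325784 to 119335962) had 16.6 and 13.3 CPM in goblet-like, 11 and 17.7 in tuft-like and 10.6 and 11.3 in deep-crypt goblet-like cells. These 3 classes were not separated by the batches, and their order changed with clustering resolution, mitochondrial limit and thinning. Colonocyte-like cells had 0.318 and 0.305 CPM of Dll4. Outside the epithelium, endothelial-like cells had 20.2 and 86.5 CPM of Dll4, on 2 and 5 UMIs in 19 and 24 cells.

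Of 8 other Notch receptors and ligands, Jag1, a ligand, was the most abundant in epithelial-like cells at 8.75 CPM, followed by the receptor Notch2 at 4.43 and Dlk1, a noncanonical ligand, at 2.08. Jag1 had 13.5 and 16.8 CPM in stem-like cells and 6.07 and 4.53 in colonocyte-like cells. Its highest level was in the Htr4-led cluster, at 26 and 30.2, and deep-crypt goblet-like cells had 6.4 and 5.38. Jag1 was thus not highest in the classes that led for Dll1 and Dll4.

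Hes1, the Notch target (mm10 chromosome 16, 30064384 to 30067796), was highest in stem-like cells and lower in each differentiated class. It had 729 and 934 CPM in stem-like, 389 and 500 in cycling-like, 121 and 145 in colonocyte-like and 148 and 90.6 in deep-crypt goblet-like cells. The stem-like values lay above those of every other epithelial class in both batches, and the values of goblet-like, enteroendocrine-like, tuft-like, colonocyte-like and deep-crypt goblet-like cells overlapped from each class to the next. Macrophage-like cells, at 445 and 392 CPM, were near the cycling-like cells.

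The share of cells with a Hes1 UMI put enteroendocrine-like cells below colonocyte-like cells, whose levels overlapped theirs. After each cell was thinned to 2000 UMIs, 58.1% and 73.5% of stem-like cells had a Hes1 UMI, against 16.3% and 18.3% of colonocyte-like and 9.64% and 2.63% of enteroendocrine-like cells (19 of 197 and 3 of 114; 95% Clopper-Pearson intervals 5.91 to 14.7 and 0.546 to 7.5). Cells too shallow to thin were left out, 13 and 3 stem-like and 27 and 10 enteroendocrine-like. Tuft-like cells had 16.3% and 2.7% (13 of 80 and 1 of 37). Unthinned, the shares were 89.9% and 88.7% in stem-like, 51% and 55.7% in colonocyte-like and 20.1% and 4.03% in enteroendocrine-like cells. Neutrophil-like cells, taken as a background class, had 2.97% and 4.04% (median depths of 2620 and 3098 UMIs, against 6062 and 5669.5 in enteroendocrine-like cells), and the batch 2 shares of enteroendocrine-like and tuft-like cells did not exceed it.

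**Figure D1:**
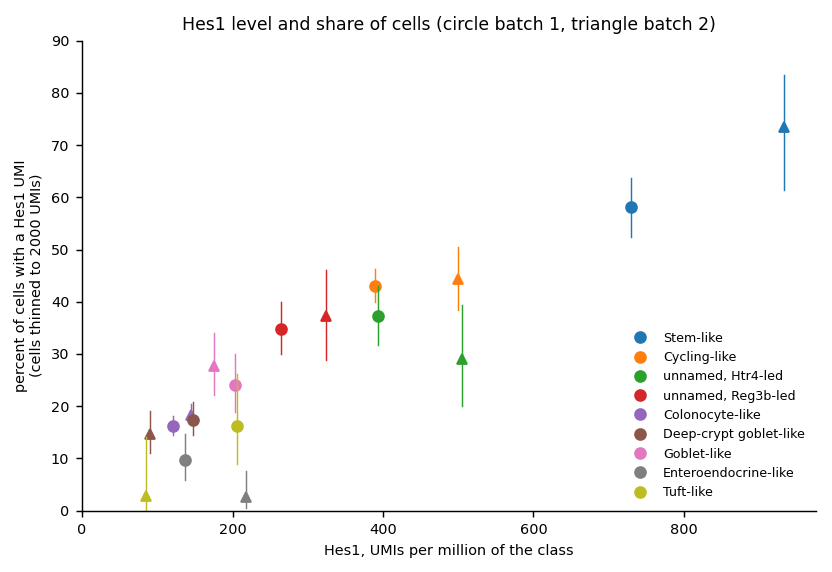
Hes1 level in CPM (horizontal) against the percent of cells with a Hes1 UMI after thinning to 2000 UMIs (vertical, with 95% Clopper-Pearson intervals) for 9 epithelial classes, batch 1 as circles and batch 2 as triangles. Stem-like cells lie highest on both axes, and the enteroendocrine-like points at 137 and 218 CPM lie at 9.64% and 2.63%.

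A few deep cells carried the enteroendocrine-like Hes1 level of 137 and 218 CPM. In batch 2, 2 of 124 cells held 197 of the 201 Hes1 UMIs. In batch 1, 20 cells with 5 or more Hes1 UMIs had a median of 30332 UMIs, against 5144 in the 179 cells with none. Those 20 cells had 222 CPM of Neurod1 and 11747 of Chgb, a granule protein, while the 179 had 722 and 26342. In batch 2 the 2 cells had 122 CPM of Neurod1 against 970 in the 119 cells with none. The deep cells thus had lower levels of hormone cell genes together with Hes1. Tuft-like cells showed the same pattern. In batch 1, 7 of 91 tuft-like cells held 157 of the 187 Hes1 UMIs, and in batch 2, 2 of 45 held 21 of 24. The 7 cells had a median of 24200 UMIs and 1155 CPM of Dclk1, a tuft cell marker. The 66 cells with no Hes1 UMI in that batch had 4697.5 and 4255. Whether the deep cells of either class were doublets was not tested.

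Atoh1 (mm10 chromosome 6, 64729125 to 64731245) was a gene of both goblet-like classes. It had 188 and 221 CPM in deep-crypt goblet-like cells and 140 and 146 in goblet-like cells, which did not overlap. Stem-like cells had 13.2 and 15.2 CPM and colonocyte-like cells 0.913 and 0.958. Enteroendocrine-like cells had 20.5 in batch 1 and 1.08, a single UMI, in batch 2. Tuft-like cells held 1 UMI in batch 1 and 0 in batch 2 (a floor of 10.6 CPM), so a level under that floor was not detectable there. Thinned to 2000 UMIs, 29.4% and 33% of deep-crypt goblet-like cells, 21.6% and 22.6% of goblet-like cells and 2.31% and 1.47% of stem-like cells had an Atoh1 UMI. Neutrophil-like cells had 0.495% and 0.231%, and enteroendocrine-like cells 1.52% and 0 of 114 (Clopper-Pearson upper bound 3.18%; 3 cells of 114 would be 2.63%).

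Spdef, a factor of goblet cell maturation (mm10 chromosome 17, 27714352 to 27728955), and Gfi1, a repressor acting after Atoh1 (mm10 chromosome 5, 107716657 to 107726036), were also highest in deep-crypt goblet-like and then goblet-like cells. Spdef had 165 and 292 CPM in deep-crypt goblet-like and 91.5 and 145 in goblet-like cells, higher in batch 2 in both. Colonocyte-like cells had 0.953 and 0.828. Gfi1 had 11.9 and 15.7 CPM in deep-crypt goblet-like and 9.36 and 11 in goblet-like cells, and at most 2.2 in the other epithelial classes. T, NK and innate lymphoid-like cells, in which Gfi1 is also known, had 14 and 17.5.

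Over 18 sums (9 epithelial classes in 2 batches) the log2(CPM + 1) values of Atoh1 and Spdef had a Pearson r of 0.95, Atoh1 and Gfi1 0.93, Dll1 and Dll4 0.77, and Hes1 and Notch1 0.73. Hes1 and Atoh1 had -0.20 and Klf4 and Notch1 -0.77. The sums share libraries and classes, so these are descriptions. Among 8763 genes with at least 10 CPM on average, Gm1123, Tpsg1 and Spink4 were most like Atoh1 (r of 0.98 each), and Hpd, Spink4 and Ccl9 most like Spdef (0.99, 0.98 and 0.98). Tfrc, the transferrin receptor, was most like Hes1 at 0.90, and Amigo2 most like Neurod1 at 0.99. Ceacam1 and Clec2h were most like Klf4 (0.95 each), Gm1123 most like Gfi1 (0.97), Mospd1 most like Dll1 (0.94), Rab27b, a factor of granule release, most like Dll4 (0.95), and Coq8a most like Notch1 (0.96). Neurog3 had no gene above 0.70.

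**Figure D2:**
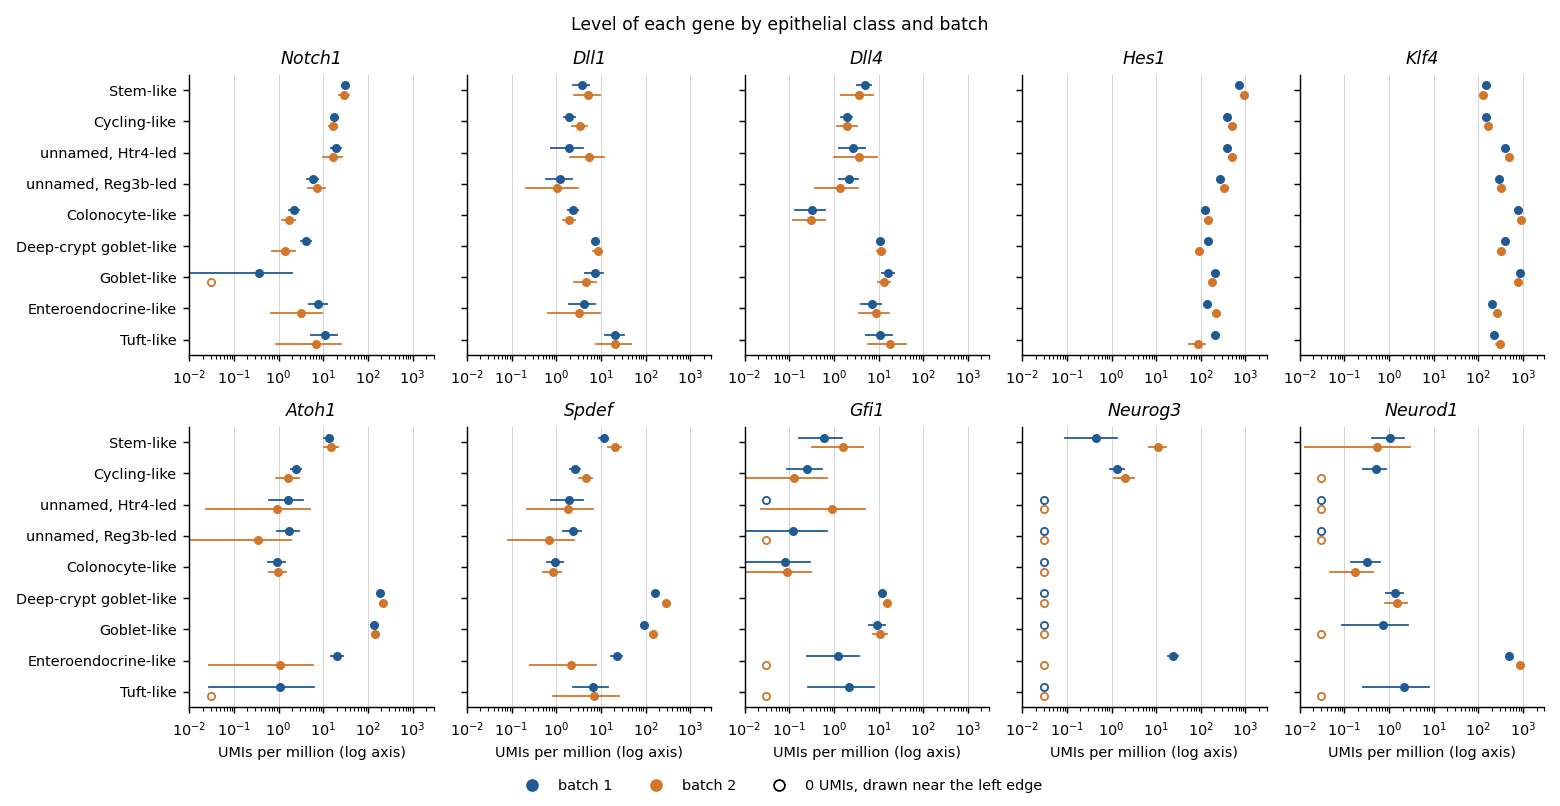
CPM (log axis, 95% Poisson intervals as lines) of the 10 genes in 9 epithelial classes, batch 1 in blue and batch 2 in orange, with open circles near the left edge for 0 UMIs. Atoh1, Spdef and Gfi1 are highest in both goblet-like classes, Neurod1 in enteroendocrine-like cells, and Hes1 and Notch1 in stem-like cells.

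Within the stem-like and cycling-like cells, Atoh1 marked a small subset that also held Spdef and mucus genes. Of these cells, 31 and 6 had 2 or more Atoh1 UMIs, 27 and 6 had 1, and 1238 and 336 had none. Spdef was 1.31 and 3.1 CPM in cells with none, 37.2 and 45.2 with 1 UMI and 66.1 and 120 with 2 or more. Dll1 had 1.79 and 3.42 CPM with none and 11.6 and 12.3 with 2 or more, on 14 and 4 UMIs. Dll4 had 2.1 and 1.93 CPM with none and 9.08 and 6.13 with 2 or more, on 11 and 2 UMIs. With 1 Atoh1 UMI, Dll1 had 10.4 and 5.64 CPM on 7 and 1 UMIs and Dll4 11.9 and 16.9 on 8 and 3. In batch 1 the intervals of both ligands in cells with Atoh1 lay above those of cells with none. In batch 2 the 12 cells with Atoh1 were too few: the interval for Dll4 with 2 or more ran from 0.743 to 22.2 CPM and held the level of cells with none.

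Hes1 showed no common direction between crypt cells with and without Atoh1. It had 464 and 577 CPM with no Atoh1 UMI and 448 and 736 with 2 or more. Klf4 had 148 and 162 against 140 and 138, and Notch1 20.1 and 19.5 against 16.5 and 9.2. Muc2, the main mucin, had 27.6 and 41.1 CPM with none and 2124 and 2530 with 2 or more. The cells with 2 or more were also deeper, with medians of 35248 and 50700.5 UMIs against 20704 and 25230.5, and the part of depth or of joined cells in this was not tested. In colonocyte-like cells the 14 and 12 cells with 1 Atoh1 UMI held 0 Spdef UMIs, and the 4 and 3 cells with 2 or more held 2 and 0.

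**Figure D3:**
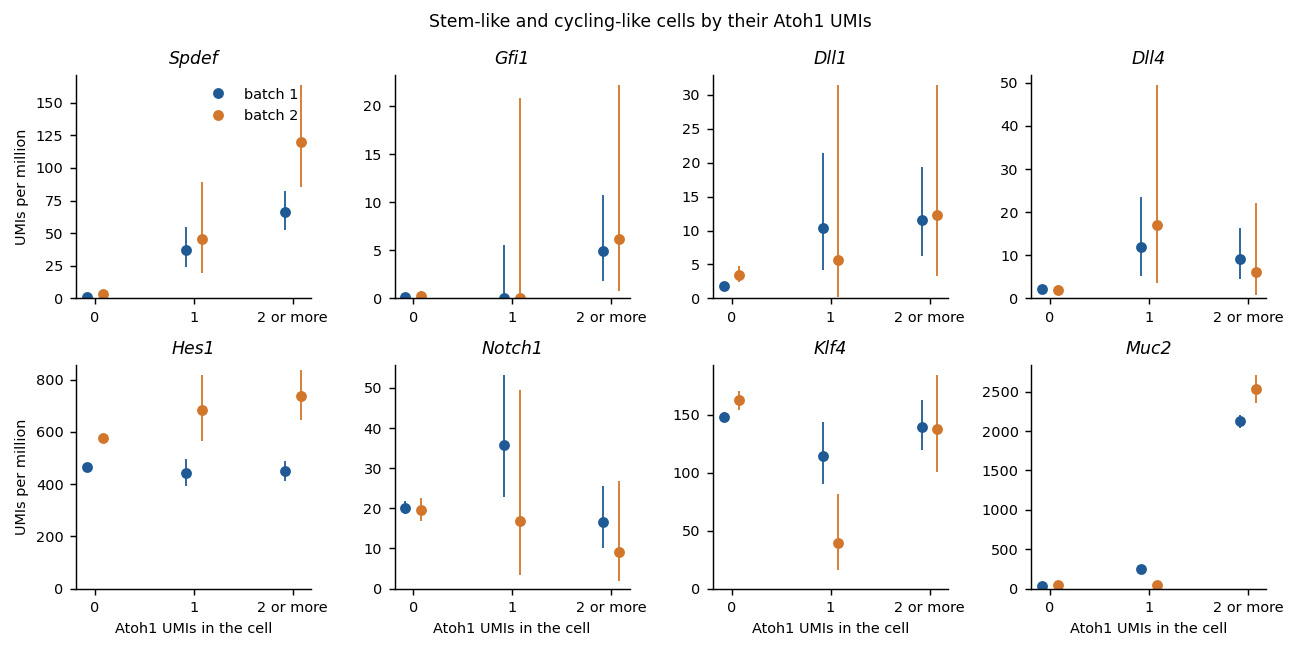
CPM (with 95% Poisson intervals) of 8 genes in stem-like and cycling-like cells with 0, 1, or 2 or more Atoh1 UMIs, batch 1 in blue and batch 2 in orange. Spdef and Muc2 are higher with 2 or more Atoh1 UMIs than with 0 in both batches, the batch 2 intervals of Dll1 and Dll4 are wide, and Hes1 lies between 443 and 736.

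Neurod1 (mm10 chromosome 2, 79452521 to 79456751) was a gene of enteroendocrine-like cells, at 472 and 865 CPM, with at most 2.2 in any other epithelial class. Neurog3, which starts the enteroendocrine path (mm10 chromosome 10, 62133090 to 62134763), was found in 14 of 7995 epithelial-like cells, on 134 UMIs. These were 7 enteroendocrine-like cells, all of batch 1, 4 cycling-like, 2 stem-like and 1 cell of an unnamed cluster led by Gm26917. The UMIs per cell ran from 1 to 23. Outside these cells, 4 and 2 droplets of the mixed clusters held 15 Neurog3 UMIs in each batch. A single macrophage-like cell of batch 2 held 4. Of the 14, 13 had no tag and 1 was labelled TG_WT, so no comparison of conditions could be made. At a finer clustering (Leiden resolution 2.0) all 7 enteroendocrine-like cells fell in clusters classed as mixed, and stem-like cells then led with 4.95 CPM.

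The 7 enteroendocrine-like cells with Neurog3 all held Neurod1, at 11 to 31 UMIs, and only 1 of the other 7 did, at 10. Together the 7 had 1158 CPM of Neurod1 and 3725 of Chgb, against 439 and 19525 in the 217 enteroendocrine-like cells of batch 1 without Neurog3. Hes1 was at 0 in 6 of the 7. Sox4, a factor of early secretory cells, had 1158 CPM in them against 271. The Neurog3 cells thus had more Neurod1 and Sox4 and less Chgb than the rest of the class in that batch. These 7 cells had 5992 to 30808 UMIs, against a median of 5947 in the class over both batches, and the part of depth was not tested.

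The 6 stem-like and cycling-like cells with Neurog3 had more Dll1 than those without, at 74.2 and 37.4 CPM against 2.11 and 3.57. Of the 8 UMIs behind the batch 1 value, 7 came from a single cell. The finer clustering classed that cell as deep-crypt goblet-like, another as mixed and another in an unnamed cluster led by Sult1a1. The batch 2 value rested on 1 Dll1 UMI in each cell. Sox4 had 519 and 1326 CPM against 113 and 105, and Hes1 269 and 18.7 against 464 and 587. Atoh1 was found in 1 of the 14 Neurog3 cells, at 4 UMIs.

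**Figure D4:**
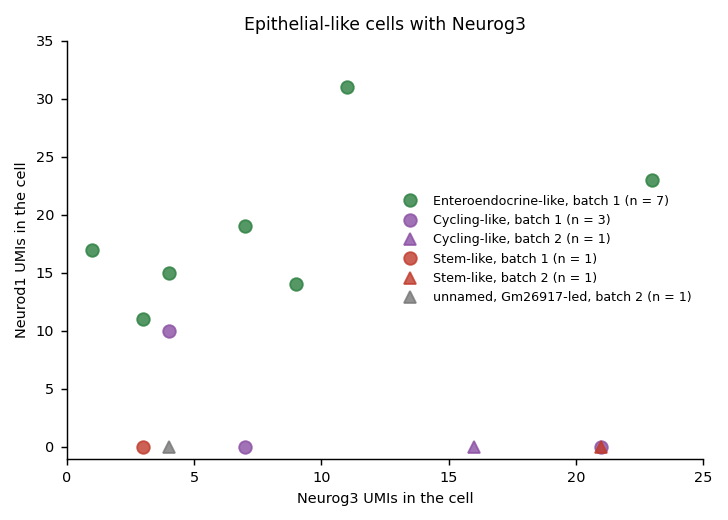
Neurod1 UMIs against Neurog3 UMIs in the 14 epithelial-like cells with Neurog3, coloured by class, circles for batch 1 and triangles for batch 2. The 7 enteroendocrine-like cells have 11 to 31 Neurod1 UMIs, and of the others only 1 cell, with 4 Neurog3 UMIs, has any (10); 2 points overlap at 21 Neurog3 UMIs.

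Klf4 (mm10 chromosome 4, 55527143 to 55532466) had 754 and 913 CPM in colonocyte-like and 850 and 762 in goblet-like cells, which overlapped. It had 396 and 322 in deep-crypt goblet-like cells, below both. Stem-like cells had the lowest level, 146 and 129, and cycling-like cells followed at 147 and 167. With cells of exactly 1 tag, goblet-like cells led for Klf4.

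Among other Notch targets and pathway genes, Hes6, a Hes family member that is known to counter Hes1, had 117 and 141 CPM in deep-crypt goblet-like, 75.7 and 88.1 in stem-like and 16.6 and 14.4 in colonocyte-like cells. Nrarp, a feedback inhibitor of Notch, had 32.3 and 20.5 CPM in stem-like, 26.9 and 28.4 in cycling-like, 17.6 and 32 in the Htr4-led and 9.05 and 4.75 in deep-crypt goblet-like cells. Hes6 was thus highest in deep-crypt goblet-like cells, where Nrarp was low. Maml3, a coactivator of the Notch complex, had 422 and 539 CPM in enteroendocrine-like and 426 and 366 in Htr4-led cells, with 206 and 167 in stem-like and 51.2 and 41.6 in colonocyte-like cells. Psenen, a subunit of the protease that cleaves Notch, had 151 and 154 CPM in stem-like and 228 and 254 in colonocyte-like cells. St18, a zinc finger factor of the enteroendocrine list, had 2444 and 2447 CPM in tuft-like cells and 123 and 199 in enteroendocrine-like cells. Ehf, an epithelial ETS factor, had 636 and 823 in tuft-like, 453 and 544 in deep-crypt goblet-like and 160 and 185 in goblet-like cells, and Id1, an inhibitor of helix-loop-helix factors, had 749 and 513 in goblet-like, 567 and 577 in the Htr4-led and 282 and 236 in deep-crypt goblet-like cells.

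The conditions were then compared, which asks whether DSS or loss of Jup moved these genes. Atoh1 in all epithelial-like cells had 83.2 and 89.9 CPM in cells labelled Ctrl_DSS. It had 41.2 and 28.5 for Ctrl_WT, 50.8 and 44.5 for TG_WT and 42.1 and 49 for TG_DSS. Both Ctrl_DSS values lay above all 6 others. Median mitochondrial shares of these cells were 4.03% and 2.5% for Ctrl_DSS, 7.23% and 4.27% for Ctrl_WT, 6.28% and 2.95% for TG_WT and 5.09% and 3.57% for TG_DSS, lowest for Ctrl_DSS within each batch, and their part in the result was not tested. Against Ctrl_WT the log2 fold change was 1.21 (SE 0.200), which missed the threshold of 0.05 by edgeR's quasi-likelihood test (adjusted p = 0.0652) and passed it with DESeq2 (adjusted p = 0.00332).

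Spdef had 60.6 and 125 CPM for Ctrl_DSS, 28 and 44.4 for Ctrl_WT, 52.4 and 42.4 for TG_WT and 42.1 and 66.8 for TG_DSS. The Ctrl_DSS value was the highest within each batch, and the tags overlapped across batches. Its log2 fold change against Ctrl_WT was 1.27 (SE 0.282), with an adjusted p of 0.107 by edgeR and 0.0229 by DESeq2. None of the 9 members tested was called by edgeR (Neurog3 had too few UMIs for its filter), where 0.157% of 11464 genes were (4 higher, 0.0349%, and 14 lower, 0.122%). An unadjusted p under 0.05 was found for 1719 genes (15%), with 2 members among them, Atoh1 and Spdef. DESeq2 called 277 genes.

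The share of the 2 goblet-like classes together was also highest for Ctrl_DSS in both batches. Intervals of the other tags overlapped within each batch. Of epithelial-like cells with the Ctrl_DSS tag, 43.7% and 42.6% lay in the 2 goblet-like classes. These classes held 18.9% and 12.3% of Ctrl_WT, 28.9% and 20.1% of TG_WT and 18.2% and 17.4% of TG_DSS. Deep-crypt goblet-like cells alone made up 35.3% and 32.1% for Ctrl_DSS, and 6.52% to 13.2% for the other tags. Goblet-like cells alone were not highest for Ctrl_DSS, at 8.47% and 10.5% against 15.8% and 12.8% for TG_WT. The 2 classes together held 13.8% and 16.1% of untagged epithelial-like cells, and 33.8% and 36.2% of those over several tag thresholds. The share for a tag thus need not be the share in its condition, and the part of tag calling was not tested. Within the 2 goblet-like classes Atoh1 had 194 and 195 CPM for Ctrl_DSS and 155 and 185 for TG_WT. It had 187 for Ctrl_WT and 157 for TG_DSS in batch 1, where alone those tags had enough cells of these classes. The log2 fold change of Ctrl_DSS against TG_WT in them was 0.07 (SE 0.195, adjusted p = 0.943 by edgeR), and for Spdef 0.06 (SE 0.193). None of 8 members tested was called, where 0.136% of 10320 genes were (14, of them 0.0291% higher and 0.107% lower; 1160 or 11.2% at an unadjusted p under 0.05, with 0 members; 17 by DESeq2), in a fit with 1 residual degree of freedom. With all goblet-like, tuft-like and enteroendocrine-like cells left out, the Atoh1 difference of Ctrl_DSS from Ctrl_WT was -0.09 (SE 1.00) and that of TG_DSS from Ctrl_DSS 1.55 (SE 0.992), neither called, and Spdef had 1.78 (SE 1.31) and 0.17. In sums over all epithelial-like cells, more cells of a type and more RNA per cell cannot be told apart.

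**Figure D5:**
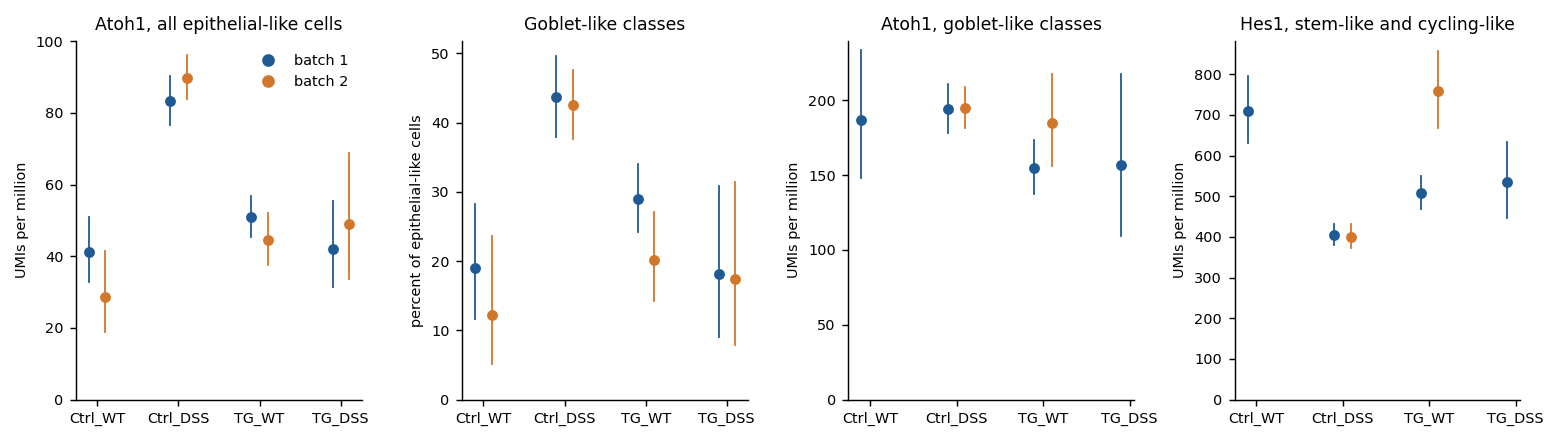
From left to right, Atoh1 (CPM) in all epithelial-like cells, the goblet-like share of epithelial-like cells (percent), Atoh1 (CPM) in goblet-like classes and Hes1 (CPM) in stem-like and cycling-like cells, by tag, batch 1 in blue and batch 2 in orange, with 95% intervals of counting error. Ctrl_DSS is highest in the first 2 panels, at 83.2 and 89.9 CPM and 43.7% and 42.6%, and not set apart in the third; tags with under 10 cells in a batch have no point.

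Cells labelled TG_DSS were compared with Ctrl_DSS and with TG_WT, comparisons that share their TG_DSS cells. Against Ctrl_DSS the log2 fold changes were -0.97 for Atoh1 (SE 0.206, adjusted p = 0.136 by edgeR) and -0.77 for Spdef (SE 0.282, adjusted p = 0.347). None of 9 members was called, where 0.0349% of 11464 genes were (4, of them 0.0174% in each direction; 1369 at an unadjusted p under 0.05, 11.9%, with 4 members, Atoh1, Spdef, Gfi1 and Neurod1; 150 by DESeq2). Gfi1 was on 1 UMI in all TG_DSS epithelial-like cells, and no fold is given. Against TG_WT, Atoh1 was at -0.18 (SE 0.212) and Spdef at 0.02 (SE 0.290), with 0 genes called by edgeR (0%; 604 or 5.27% at an unadjusted p under 0.05, with 0 members; 13 by DESeq2).

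The difference of differences, TG_DSS minus TG_WT minus Ctrl_DSS plus Ctrl_WT, is the same under both readings of the tags. It was -1.39 for Atoh1 (SE 0.291, adjusted p = 0.261 by edgeR) and -1.25 for Spdef (SE 0.402, adjusted p = 0.427). No member was called, where 0.0174% of genes were (2; 1031 or 8.99% at an unadjusted p under 0.05, with 3 members, Atoh1, Spdef and Gfi1; 48 by DESeq2). Cells labelled TG_DSS stood apart in leukocyte transcripts: 10 neutrophil markers summed to 3361 and 1243 CPM in their epithelial-like cells, against 78.1 and 83.3 for Ctrl_DSS, 81 and 90.9 for Ctrl_WT and 156 and 555 for TG_WT, while all 10 were detected for TG_DSS and Ctrl_DSS in both batches and for TG_WT in batch 2. The TG_DSS sums rested on 55 and 46 cells, and the part of these transcripts in the differences was not tested beyond the following. Droplets that held leukocyte transcripts were left out in a setting chosen after seeing the data. It left TG_DSS only its batch 1 sum, of 19 cells, since batch 2 kept 7, under the minimum. Ctrl_DSS kept 130 and 88 cells. The Atoh1 difference of TG_DSS from Ctrl_DSS was then -1.25 (SE 0.443), and that of Ctrl_DSS from Ctrl_WT was 1.66 (SE 0.326).

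The Neurod1 level of TG_DSS differed widely between the batches. It had 83.4 CPM in batch 1 and 4.45 in batch 2 for TG_DSS, against 8.96 and 8.56 for Ctrl_DSS, 16.8 and 29.3 for TG_WT and 0 and 18 for Ctrl_WT. The batch 1 value rested on 101 UMIs, with 7 enteroendocrine-like cells among 55. The batch 2 value, with 3 such cells among 46, was the level of 3 UMIs. Enteroendocrine-like cells made up 2.03% and 1.79% for Ctrl_DSS and 12.7% and 6.52% for TG_DSS. On 3 UMIs it cannot be told whether Neurod1 of TG_DSS in batch 2 was below that of Ctrl_DSS, while the share was higher. The log2 fold change of TG_DSS against Ctrl_DSS was 2.46 (SE 1.03, adjusted p = 0.402 by edgeR). It became -1.52 without TG_DSS in batch 1. Without droplets that held leukocyte transcripts, which left TG_DSS only its batch 1 sum of 19 cells, it was -0.78.

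TG_WT against Ctrl_WT, which shares its Ctrl_WT cells with the first comparison, gave no called gene of 11464 by edgeR (0%; 614 at an unadjusted p under 0.05, 5.36%, with 0 members; 12 by DESeq2). Atoh1 was at 0.42 (SE 0.205, adjusted p = 0.921) and Dll1 at 1.32 (SE 0.647, adjusted p = 0.921). The median over the 9 members was 0.25 and over all genes 0.01. For Ctrl_DSS against Ctrl_WT these medians were 0.42 and 0.02.

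The receptor and the ligands gave few UMIs per tag. Notch1 had 8.34 and 8.46 CPM for Ctrl_WT, 10.7 and 5.12 for Ctrl_DSS, 8.55 and 1.19 for TG_WT and 8.26 and 8.9 for TG_DSS. Dll4 had 4.91 and 3.17, 6.46 and 5, 5.16 and 3.56, and 5.78 and 4.45 in the same order of tags. The Notch1 values of TG_WT spanned a wider range than those of Ctrl_WT and TG_DSS. Dll1 had 0.982 and 4.23 CPM for Ctrl_WT and 5.33 and 5.34 for TG_WT, with 2.94 and 4.56 for Ctrl_DSS and 3.3 and 2.97 for TG_DSS. Both TG_WT values were above those of Ctrl_WT, but the Ctrl_WT sums held few Dll1 UMIs, and counting error was not weighed. Klf4 lay between 394 and 491 CPM in all 8 sums.

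Hes1 in all epithelial-like cells had 230 and 242 CPM for Ctrl_WT, 277 and 199 for Ctrl_DSS, 274 and 252 for TG_WT and 245 and 277 for TG_DSS. The Ctrl_WT values lay inside the range of Ctrl_DSS and just below those of TG_WT and TG_DSS. Its log2 fold change was -0.05 (SE 0.204) for Ctrl_DSS against Ctrl_WT. In stem-like and cycling-like cells Hes1 had 405 and 401 CPM for Ctrl_DSS and 508 and 758 for TG_WT, with 710 for Ctrl_WT and 534 for TG_DSS in batch 1. Both Ctrl_DSS values were below the others. The difference from TG_WT was -0.58 (SE 0.223, unadjusted p = 0.0215, adjusted p = 1.00 by edgeR). None of 6 members was called there, where 0.042% of 9532 genes were (4, of them 0.0105% higher and 0.0315% lower; 369 or 3.87% at an unadjusted p under 0.05, with 1 member, Hes1; 0 by DESeq2), again with 1 residual degree of freedom. The summed immediate early genes moved the same way there, 3629 and 3892 CPM for Ctrl_DSS and 4610 and 5812 for TG_WT. Their part was not tested. Stem-like cells, which had more Hes1 than cycling-like cells, were 11 of 83 and 10 of 53 of these cells for Ctrl_DSS. They were 11 of 48 and 1 of 14 for TG_WT, and in batch 1 6 of 17 for Ctrl_WT and 4 of 10 for TG_DSS. The part of this mix was not tested either.

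In colonocyte-like cells only Klf4 and Hes1 had enough UMIs. Klf4 had 754 and 834 CPM for Ctrl_DSS and 644 and 654 for Ctrl_WT (log2 fold change 0.35, SE 0.230). Hes1 had 125 and 152 against 56.9 and 153 (0.56, SE 0.378). Both had an adjusted p of 0.882 by edgeR, and neither was called, where 0.0133% of 7526 genes were (1; 387 or 5.14% at an unadjusted p under 0.05, with 0 members; 1 by DESeq2). Summed immediate early genes had 4860 and 3762 CPM for Ctrl_DSS there and 2592 and 3106 for Ctrl_WT.

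Other genes of the pathway were counted by list, with no gene past edgeR's threshold in any of 7 lists and 8 comparisons as fitted. In the list of goblet and other secretory factors, 14 of 16 genes could be tested in epithelial-like cells, and their median for Ctrl_DSS against Ctrl_WT was 0.59, with 9 at an unadjusted p under 0.05, where 15% of all genes were. Without Ctrl_WT in batch 1 that median was 1.05, and without it in batch 2 it was 0.38. In the Notch processing and nuclear machinery, 22 of 25 were tested, with a median of -0.15 and 1 at that p; the median was 0.04 without Ctrl_WT in batch 1. The 11 of 16 enteroendocrine factors tested had a median of 2.44 for TG_DSS against Ctrl_DSS, with 8 at that p, where 11.9% of all genes were. The TG_DSS sums held 7 and 3 enteroendocrine-like cells, and the list had a median of 0.77 with 2 of 12 at that p without TG_DSS in batch 1. It had 1.74 without Ctrl_DSS in batch 2. Without droplets that held leukocyte transcripts it had -0.39 over the 4 genes left to test, with TG_DSS on its batch 1 sum alone. Immediate early genes, which dissociation can raise, had a median of 0.55 for Ctrl_DSS against Ctrl_WT, with 10 of 18 at that p (3 without Ctrl_DSS in batch 1); their summed level was 5824 and 4694 CPM for Ctrl_DSS and 3963 and 3366 for Ctrl_WT. Their part in the other differences was not tested.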

How the data were processed

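The deposited values are raw UMI counts per gene and barcode, made by the authors with Cell Ranger 7.0.0 on mm10, per the submitters' processing notes. The 10 members and all gene lists were chosen with earlier results of these data known.

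Barcodes were called as cells by rank and by departure from ambient RNA, and kept from 250 genes up, with no more than 25% of UMIs mitochondrial. Tags were called by a 2-component mixture per tag and batch; cells over more than 1 threshold (266 and 699) were left out of comparisons between tags as likely doublets but, like untagged cells, stayed in levels by class. No other doublet caller was run. Cells were clustered with scanpy 1.11.5 (2000 variable genes without the members, 30 components, Leiden at resolution 1.0) and named from marker lists.

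UMIs were summed per class, tag and batch (at least 10 cells) and tested with edgeR 4.0.16 (quasi-likelihood, TMM, filterByExpr, tag and batch as terms, Benjamini-Hochberg over all genes, 0.05). A batch is 1 pool, sort and library, so batch was a block. Deviations of the tags' sums within a batch correlated by -0.0166 to 0.389 over 11464 genes. The epithelial-like test of Ctrl_DSS against Ctrl_WT was also run on simulated counts that held no batch effect. Other fits were not checked in this way. Named were all members, up to 3 most abundant genes of a list, and up to 3 most alike genes; Muc2, Chgb and Sox4 were added with values known. Alternatives were DESeq2 1.42.0, other scaling, filters, tag rule, resolution and thinning, each sum left out, and no batch block.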

Additional observations from a re-analysis of the deposited data

Results flagged for a closer look

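Droplets of the mixed clusters, which carried epithelial and neutrophil markers and entered no comparison, held Hes1 and Neurod1 above the level of epithelial-like cells labelled Ctrl_WT. Those labelled TG_DSS (227 and 125 droplets) had 278 and 331 CPM of Hes1, against 230 and 242 in Ctrl_WT epithelial-like cells. Neurod1 had 24.7 and 109 CPM in them, against 0 and 18. Epithelial-like cells of the same TG_DSS tag had 245 and 277 CPM of Hes1 and 83.4 and 4.45 of Neurod1. For Neurod1 the mixed droplets were thus lower in batch 1 and higher in batch 2, where the epithelial-like value was the level of 3 UMIs. Hes1 and Neurod1 were picked because their Poisson intervals in these TG_DSS droplets lay above those of Ctrl_WT epithelial-like cells in both batches. Their higher level thus follows from the choice, and no other member met it. Chgb and Chga, hormone cell genes, were among the leading genes of a mixed cluster of 391 droplets. The part of such cells in the Neurod1 level was not tested. The values are given because these droplets were left out above.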

How the results depend on the processing

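The count of members called was 0 in all 8 comparisons by the edgeR fit as reported. With no filter on low counts it was 1 for TG_WT against Ctrl_WT (Neurod1), 2 for Ctrl_DSS against Ctrl_WT and 2 for the difference of differences (Atoh1 and Spdef), and 3 for TG_DSS against Ctrl_DSS (those and Neurod1). With the highest-tag rule it was 1 in each of Ctrl_DSS against Ctrl_WT, TG_DSS against Ctrl_DSS and the difference of differences (Spdef), and with DESeq2 it was 2 for Ctrl_DSS against Ctrl_WT. With each sum left out in turn it ran from 0 to 2 for Ctrl_DSS against Ctrl_WT: 2 without TG_WT in batch 1 or in batch 2 (Atoh1 at an adjusted p of 0.0413 and 0.0391), and 0 without any other. The cause was not tested. Without the batch block no member was called (Atoh1 adjusted p of 0.133 for Ctrl_DSS against Ctrl_WT by edgeR). Of 818 alternative values of member fold changes, 722 were like those reported, 79 had the other sign with neither value called, 17 passed the threshold and 0 reversed a call. Counts of all genes called moved more: for Ctrl_DSS against Ctrl_WT 18 became 6 without the block, 756 with no filter, 277 with DESeq2, 1 at a 10% mitochondrial limit, 42 with the highest-tag rule, 1 without goblet-like, tuft-like and enteroendocrine-like cells, 5 in the leukocyte setting and 0 to 152 with a sum left out (146 and 152 without a TG_WT sum). For TG_DSS against Ctrl_DSS 4 became 10 without the block, 596 with no filter, 0 at the mitochondrial limit, 64 with the highest-tag rule, 150 with DESeq2, 1 without those classes or in the leukocyte setting, and 1 to 70 with a sum left out. For TG_WT against Ctrl_WT 0 became 219 with no filter and 1 to 12 in others, for TG_DSS against TG_WT 0 became 207 and 1 to 13, and for the difference of differences 2 became 409 with no filter, 42 with the highest-tag rule, 48 with DESeq2 and 0 to 11 in others. In goblet-like cells 14 became 0 without the block, 475 with no filter, 187 with the highest-tag rule, 8 in deep-crypt goblet-like cells alone and 27 without TG_DSS in batch 1. In crypt cells 4 became 0 without the block or with DESeq2, 14 with relative log expression scaling, 24 without Ctrl_WT in batch 1 and 56 to 65 with no filter, the mitochondrial limit or the highest-tag rule, and in colonocyte-like cells 1 became 32 with no filter or in the leukocyte setting and 0 at the mitochondrial limit. Leaving out a Ctrl_DSS or TG_WT sum in goblet-like or crypt cells left no residual degrees of freedom, and the highest-tag rule in colonocyte-like cells and the leukocyte setting in crypt cells could not be fitted; these were not run. The leukocyte and deep-crypt goblet-like settings were chosen after seeing the data. With cells of exactly 1 tag, Klf4 and Dll1 were highest in goblet-like cells (847 and 6.76 CPM). Depth limits Neurog3, Gfi1 and the ligands, with few UMIs per tag.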
